A study of Drosophila melanogaster with 2 samples.

Results

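Of 2445 long GA repeats in the Drosophila melanogaster genome, 1836 had no nearby peak in the authors' optimal set of embryo CLAMP peaks. These 1836 are described here. Here a long GA repeat is a maximal stretch of strictly alternating G and A, 12 bp or longer on either strand, on the arms 2L, 2R, 3L, 3R and X of the dm6 genome. It counted as unoccupied when no summit of the authors' optimal peak set lay within 200 bp of it. The word stands for this rule only and does not mean that CLAMP was absent. By that rule 75.1% of the runs were unoccupied and 609 runs (24.9%) were occupied. Of 26499 positions spaced every 5000 bp along the same arms, 0.928% lay that close to an optimal summit. Of the 1836 runs, 624 (34.0%) had a region in the longer list of replicate 2 and 321 (17.5%) in that of replicate 4. These lists, described below, hold background regions too. Of the same positions, 8.99% in replicate 2 and 9.24% in replicate 4 lay within 200 bp of a summit. Occupancy chose the runs, so these shares are a description and carry no test. The sequence, position and neighbouring genes of the runs were not used in the choice.

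The peaks came from ChIP-seq of CLAMP in whole embryos aged 0 to 24 h, of mixed sex, from a transgenic line that stably makes CG1832 (CLAMP) with GFP at its C terminus. Immunoprecipitation was with an antibody against GFP, on chromatin sonicated to 200 to 800 bp. There were 2 biological replicates, numbered 4 and 2, in 1 group that shared the transgene, stage and antibody, and an untagged line was not analysed here. A whole embryo of mixed stages is a blend of tissues, so a run bound in few cells and a run bound weakly in many cannot be told apart. Runs are not replicates: p-values below measure the spread between 1 Mb stretches of the genome in these 2 libraries, and exact binomial 95% intervals, given in parentheses after shares, cover counting error only.

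CLAMP is a zinc-finger protein that recognises GA-rich DNA through an array of zinc fingers. It is known for guiding the dosage compensation complex to the male X chromosome and for binding the GA repeats between the divergent histone genes His3 and His4. GA repeats are also bound by GAGA factor, the product of Trl, and by the protein Pipsqueak.

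The longest unoccupied runs were pure repeats of over 50 bp. The 5 longest are printed with 20 bases to each side, read from the Release 6 (dm6) genome, because the only occupied run of such length was that of Ten-a. The run in CHES-1-like is printed for its peak in replicate 2 alone, that at the left end of 3L for its copied flanks, and that between histone genes as the sequence CLAMP is known to bind. The last 3 lines are occupied runs, for contrast: that of Ten-a, the longest, is of similar length, and those of rdx and ftz-f1 are shorter. Capitals mark the run, and all lines give the plus strand of dm6, so runs of C and T are GA runs of the minus strand.
spok, chr3R:3344818-3344934: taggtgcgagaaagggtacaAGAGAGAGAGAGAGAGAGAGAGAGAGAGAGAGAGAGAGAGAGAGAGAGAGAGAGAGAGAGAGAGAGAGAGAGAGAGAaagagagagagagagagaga
CG12115, chrX:9190806-9190901: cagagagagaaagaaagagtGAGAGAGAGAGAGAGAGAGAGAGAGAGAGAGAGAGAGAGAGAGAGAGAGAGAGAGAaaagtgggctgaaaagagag
bru3, chr3L:13629558-13629652: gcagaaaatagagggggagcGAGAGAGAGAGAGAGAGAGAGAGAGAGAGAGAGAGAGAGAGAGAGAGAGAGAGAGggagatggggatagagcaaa
rdgA, chrX:8968867-8968960: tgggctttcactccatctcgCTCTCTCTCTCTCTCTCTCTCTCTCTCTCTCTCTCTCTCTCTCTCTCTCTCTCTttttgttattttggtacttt
CG15465, chrX:5194707-5194798: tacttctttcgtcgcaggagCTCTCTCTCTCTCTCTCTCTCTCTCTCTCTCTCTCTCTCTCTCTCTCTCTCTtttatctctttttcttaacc
CHES-1-like, chrX:7690877-7690957: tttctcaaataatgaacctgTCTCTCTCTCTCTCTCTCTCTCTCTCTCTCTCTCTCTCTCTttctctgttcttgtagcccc
3L left end, nearest gene mthl8, chr3L:240-291: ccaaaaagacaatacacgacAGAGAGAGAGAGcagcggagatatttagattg
His3:CG33803, chr2L:21420035-21420097: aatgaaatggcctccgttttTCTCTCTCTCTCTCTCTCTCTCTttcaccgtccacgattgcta
Ten-a (occupied), chrX:12090504-12090600: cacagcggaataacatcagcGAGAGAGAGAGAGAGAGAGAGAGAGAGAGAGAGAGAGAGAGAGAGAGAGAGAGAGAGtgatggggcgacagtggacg
rdx (occupied), chr3R:14017783-14017861: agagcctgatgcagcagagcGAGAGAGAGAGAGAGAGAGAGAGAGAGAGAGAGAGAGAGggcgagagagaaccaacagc
ftz-f1 (occupied), chr3L:18787978-18788054: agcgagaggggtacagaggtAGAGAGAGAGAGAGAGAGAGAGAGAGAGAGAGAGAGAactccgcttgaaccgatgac

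The longest run of all, 77 bp on 3R (3344838 to 3344914), had no optimal summit within 946678 bp. It lay in an intron of spok, which encodes a cytochrome P450 of ecdysone synthesis. An imperfect GA tract of 110 bp surrounded it. A region of the pooled list, which also holds background regions, had its summit within 200 bp, with a signal of 91.3 at rank 6014. Neither replicate's own list had a summit that close to the run. The second longest, 56 bp on X (9190826 to 9190881), lay 248 bp from the start of the uncharacterised gene CG12115 and was in no list. A run of 55 bp on 3L (13629578 to 13629632), in an intron of the RNA-binding protein gene bru3, was found in both replicates at low rank, with signals of 43.2 in replicate 4 (rank 21622) and 23.2 in replicate 2 (rank 9999). The 54 bp run on X (8968887 to 8968940) in an intron of rdgA, a diacylglycerol kinase gene, had a signal of 17.4 in replicate 2 only. The 52 bp run on X (5194727 to 5194778), in an intron of the uncharacterised gene CG15465, was in no list.

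For description, the 6 longest occupied runs follow; the optimal set took the pooled regions of highest signal, so their higher signal is part of the choice. The longest, 57 bp on X (12090524 to 12090580) in an intron of Ten-a, a teneurin of synaptic partner matching, had a signal of 451 in replicate 4 and 204 in replicate 2, with a summit inside the run. At the 39 bp run of rdx, a Cul3 adaptor of Hedgehog signalling (3R, 14017803 to 14017841), the signals were 2020 and 656. In ftz-f1, a nuclear receptor gene (3L, 18787998 to 18788034), a 37 bp run had signals of 262 and 168. The 42 bp run of CG3078 had 306 and 174, and the 38 bp run of CG43658 had 118 and 69.4. The 38 bp run of Roc2 had 86.7 in replicate 2 and no region in replicate 4. These signals are the authors' own and rank regions within a list only.

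Runs of 30 bp or more were unoccupied in 34 of 58 cases, or 58.6% (44.9 to 71.4%). Of the 34, 20 were in introns, 6 within 500 bp of a transcription start site (TSS), 5 between genes and 2 in 3′ UTRs, and 10 were on X. Their median flank GC was 42.0%, against 43.0% for the 24 occupied ones, and 18 of the 34 had a further GA word in their flanks, against 16 of 24. Of the 34, 16 were in no list at all, 11 in that of replicate 2 only, 2 in that of replicate 4 only, 4 in both and 1, that of spok, in the pooled list only. Further members of 34 bp or more lay at GstS1 (42 bp, a glutathione transferase gene), Nlg4 (38 bp, a neuroligin gene), Cpr11A (38 bp, a cuticle protein gene), PpD5 (36 bp), CG43689 (35 bp), tex (34 bp, a THO complex gene), ctrip (34 bp) and Plc21C, a phospholipase C gene with a pair of 34 bp runs whose flanks were copies of each other over the 20 bases to each side. The remaining members among the 3 longest of an arm or the 6 longest at promoters lay at Acsl (33 bp), Con (32 bp), lncRNA:CR46006 (31 bp), ppk (30 bp) and Cad86C (30 bp). In the list of replicate 2 the 41 bp run of the forkhead gene CHES-1-like (X, 7690897 to 7690937, flank GC 34.0%) had a signal of 190 and ranked 764, although neither replicate 4 nor the pooled list held it.

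The limit of 200 bp cut through a continuous range of distances. Just outside it lay runs of sbb (205 bp from an optimal summit), upd1 (210 bp) and Lk6 (219 bp), and just inside runs of cv-2 (193 bp), Sh (190 bp) and CG12605 (187 bp). Most members were far from the limit. The median distance to the nearest optimal summit was 20443 bp, 10% of members lay within 1872 bp, and 60 (3.27%) lay within 500 bp. An optimal peak interval covered 1 of the 1836 runs.

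Shorter runs were unoccupied more often. The share without a summit was 84.0% (80.1 to 87.3%) of 430 runs of 12 bp and 77.1% of 350 runs of 13 bp. It was 74.3% of 502 runs of 14 to 15 bp and 75.5% of 657 runs of 16 to 19 bp. At 20 to 29 bp it was 67.4% (62.9 to 71.7%) of 448 runs. The fall was thus not steady, with little change from 13 to 19 bp. The median run was 15 bp in members and 16 bp in occupied runs. Each doubling of run length went with an odds ratio of 0.522 of being unoccupied (95% interval 0.397 to 0.685; logistic regression clustered by 1 Mb bin, n = 2445 runs, adjusted p = 4.56e-06). With position, flank composition, copied flanks and the surrounding tract in the same logistic fit, the odds ratio was 0.839 (0.615 to 1.14, n = 2445, adjusted p = 0.302). The tract contains the run itself. This fit therefore asks only whether run length was related to having no summit at a given tract length, which did not pass.

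**Figure D1:**
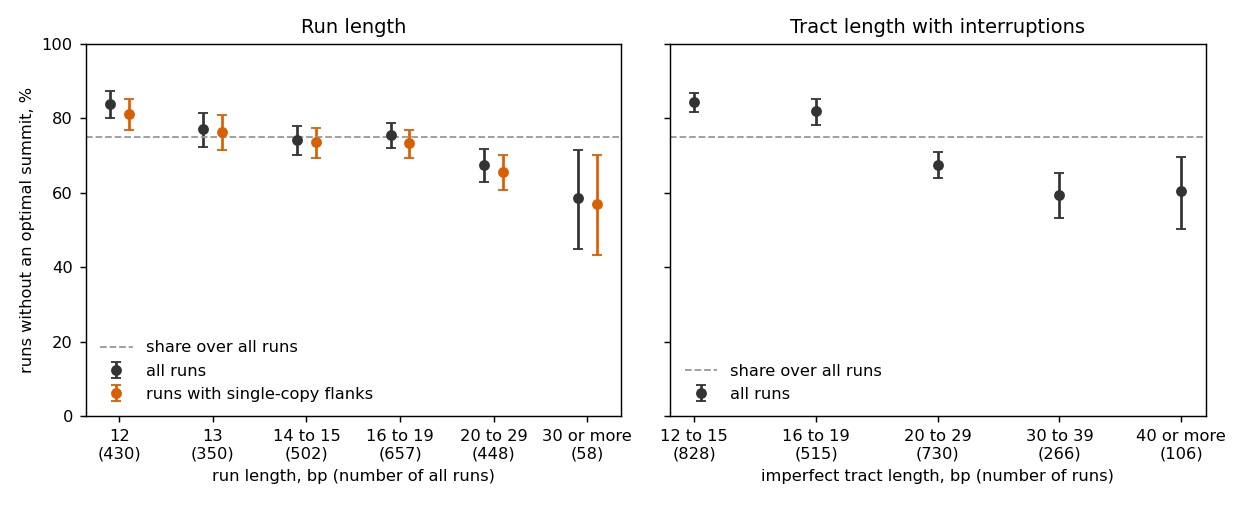
Share of GA runs without an optimal summit within 200 bp, by the length of the uninterrupted run (left, all runs in dark grey and runs with single-copy flanks in orange) and by the length of the imperfect tract around it (right). Points are shares, bars exact binomial 95% intervals and the dashed line the share over all runs, 75.1%; the share falls from 84.0% at 12 bp to 58.6% at 30 bp or more.

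The relation to length was seen on the autosomes, and whether it was shown to differ on X depended on the minimum run length. For each doubling of length the odds ratio was 0.459 (0.329 to 0.640) on the autosomes and 0.704 (0.457 to 1.09) on X. The ratio of these, 1.54 (0.895 to 2.63), did not pass the test of the difference (interaction term, n = 2445, adjusted p = 0.119), but with the 3866 runs of 10 bp or more it was 1.69 and passed (n = 3866, adjusted p = 0.00481). On X the share without a summit was 79.6% at 12 bp, between 68.1% and 71.5% in the 4 classes from 13 to 29 bp and 45.5% of 22 runs (24.4 to 67.8%) at 30 bp or more. Autosomal shares were 85.3% at 12 bp, 80.5% at 13 bp, 76.9% at 14 to 15 bp and 77.9% at 16 to 19 bp. They were 65.2% at 20 to 29 bp and 66.7% of 36 runs (49.0 to 81.4%) at 30 bp or more. X runs as a whole were unoccupied less often, at 70.4% of 737 against 77.1% of 1708 autosomal runs (odds ratio 0.707, 0.549 to 0.910; n = 2445, adjusted p = 0.00827), and this did not pass in the fit with all features (0.776, adjusted p = 0.124) or among runs with single-copy flanks alone (0.787, n = 2276, adjusted p = 0.0560). X carried 22 unoccupied runs per Mb and the autosomes 12.1, beside 31.3 and 15.7 runs per Mb in all.

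Runs in longer GA tracts, counted through interruptions, were unoccupied less often. The run was extended in phase through mismatches to give an imperfect tract, whose median length was 18 bp in members and 22 bp in occupied runs. The tract includes the run and equals it where no extension was found. Tracts of 12 to 15 bp were unoccupied in 84.4% of 828 cases. Those of 30 to 39 bp were in 59.4% of 266, and those of 40 bp or more in 60.4% of 106. Per doubling of tract length the odds ratio was 0.404 (0.330 to 0.495; n = 2445, adjusted p = 4.69e-18), and 0.559 (0.444 to 0.705; adjusted p = 2.27e-06) in the fit with all features.

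Unoccupied runs sat in less GC-rich surroundings than occupied runs, at about the GC of the genome at large. The GC content of the 250 bp to each side, the run left out, had a median of 42.4% in members, 46.0% in occupied runs and 42.0% at the evenly spaced positions. Of 164 runs in flanks under 35% GC, 156 were unoccupied (95.1%, 90.6 to 97.9%), and of 282 runs in flanks of 50% or more, 145 (51.4%, 45.4 to 57.4%). The odds ratio per 10 percentage points of GC was 0.261 (0.204 to 0.333; n = 2445, adjusted p = 1.01e-26) and stayed at 0.294 in the fit with all features. The shares fell with GC both near and far from gene starts, from 95.8% to 60.5% over 500 bp from a TSS and from 90.5% to 36.2% within 500 bp.

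The size of the GC relation differed between the replicates. From the strongest regions of replicate 4 alone, as many as there were optimal peaks on the arms, the odds ratio was 0.172 (0.132 to 0.225), and from those of replicate 2 alone 0.565 (0.453 to 0.704). Flanks of 500 bp in place of 250 bp gave 0.460. Each replicate alone kept the direction and the call. In the replicates' whole lists, evenly spaced positions differed by GC too. In replicate 4, 0.0708% of positions under 35% GC and 31.8% of those at 50% or more lay within 200 bp of a summit. In replicate 2 the shares were 5.95% and 9.66%, and the highest was 11.5%, at 45 to 50% GC. Whether the GC relation is particular to GA runs was not tested. The reason for the difference in size was not tested either.

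Unoccupied runs more often stood alone, with no further GA word nearby. The words GAGAG and CTCTC were searched in the 100 bp to each side, leaving out the run and the 5 bp next to it; a word may lie in the imperfect tract. At least 1 was present beside 53.6% of members and 80.5% of occupied runs, and at 20.9% of evenly spaced positions. With no such word 87.7% of 970 runs were unoccupied, with 1 76.5%, with 2 61.2% and with 3 to 4 150 of 300. The share was higher again, 69.5% of 95, with 5 or more, but among runs with single-copy flanks it was 38.3% of 47. Any word against none gave an odds ratio of 0.281 (0.225 to 0.351; n = 2445, adjusted p = 1.54e-28), and 0.368 (0.291 to 0.465; adjusted p = 2.71e-16) in the fit with all features. Another run of 12 bp or more within 200 bp was also rarer, at 118 members (6.43%) against 115 occupied runs (18.9%).

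**Figure D2:**
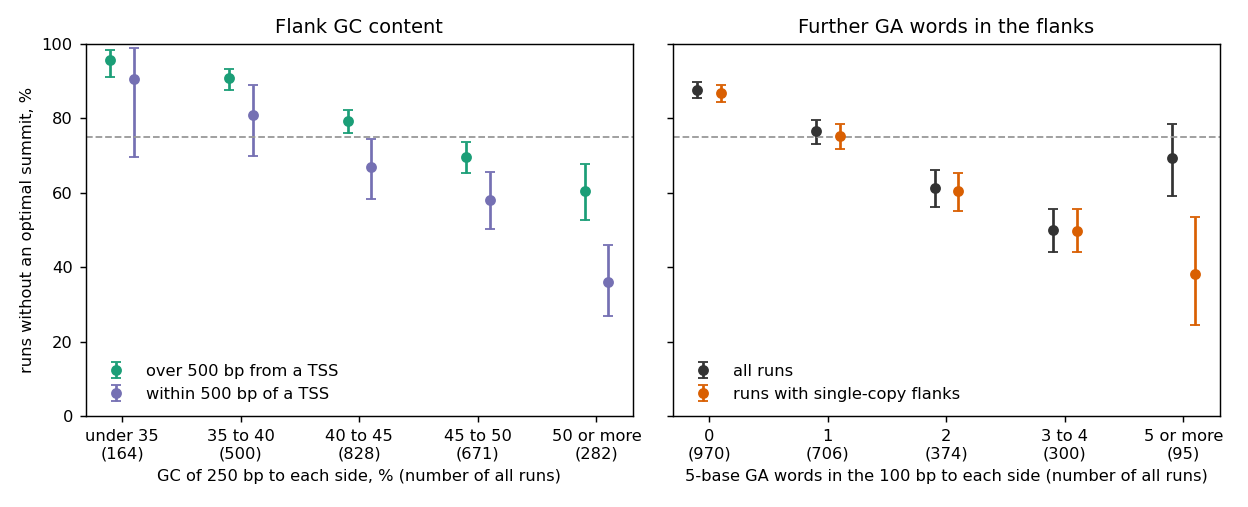
Share of GA runs without an optimal summit by flank GC content (left, runs over 500 bp from a TSS in green and within 500 bp in purple) and by the number of 5-base GA words in the flanks (right, all runs in dark grey and runs with single-copy flanks in orange). Bars are exact binomial 95% intervals and the dashed line is the share over all runs; in every GC class the purple point lies below the green one.

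Combining the features did not separate the groups fully. In flanks under 35% GC with no GA word, all 85 runs were unoccupied (100%, 95.8 to 100%), and under 40% GC with no word and under 16 bp, 159 of 163 were (97.5%). At the other extreme, runs of 20 bp or more with a GA word, flanks of 45% GC or more and single-copy sequence were unoccupied in 69 of 142 cases (48.6%, 40.1 to 57.1%), and in 20 of 43 where they also lay within 500 bp of a TSS. These combined classes were chosen after the single features had been seen.

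Runs near gene starts were unoccupied less often. Within 500 bp of a TSS 60.6% of 508 runs were unoccupied (56.2 to 64.9%), against 77.0% of 1245 runs in introns, 83.5% of 133 in 3′ UTRs and 83.4% of 487 between genes. Farther than 20 kb from a TSS the share was 89.9% of 188. Promoter position had an odds ratio of 0.412 (0.309 to 0.550; n = 2445, adjusted p = 3.20e-09), and of 0.554 (0.417 to 0.736; adjusted p = 8.93e-05) in the fit with all features. Members were still at promoters (16.8%) somewhat more often than evenly spaced positions (13.1%), and in introns more often (52.2% against 39.8%). None of the 2445 runs overlapped a coding exon, though coding sequence made up 17.0% of the arms. Of 17 runs of 10 to 11 bp in coding exons 16 were unoccupied (94.1%, 71.3 to 99.9%). That interval covers the 81.4% over all 1421 runs of 10 to 11 bp. All 39 runs in 1 Mb bins with under 20 protein-coding TSSs were unoccupied.

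**Figure D3:**
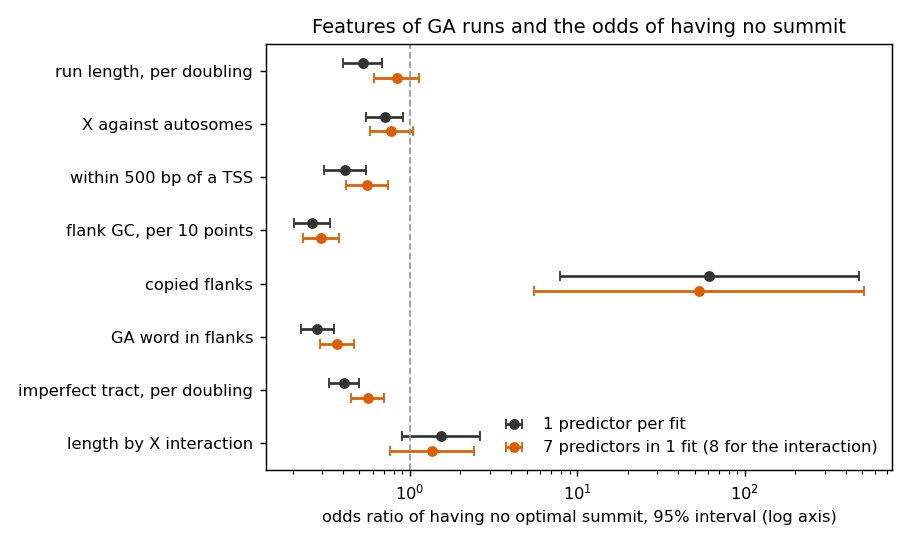
Odds ratios of having no optimal summit for 8 features of GA runs, on a log axis, with 95% intervals clustered by 1 Mb bin; dark grey points are from fits with 1 predictor (the interaction fit also holds length and X) and orange points from the joint fit. The intervals for run length and X cross 1 only in the joint fit, and the copied-flank interval is wide because 1 of 169 such runs was occupied.

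Runs in copied sequence were almost all unoccupied. The flanks were called copied when under 90% of the 50-base words starting within 200 bp to each side occurred once in the genome. This held for 169 runs, of which 168 had no summit (9.15% of members; odds ratio 61.2, 7.88 to 476; n = 2445, adjusted p = 0.000112; 53.2 in the fit with all features). The estimate rests on the 1 occupied run and its size is loose, with 29.5 from replicate 2 alone and 36.1 for runs of 16 bp or more. Whether reads that map to several places entered the peak lists is not stated in any source used, so a copied run without protein and a copied run without placed reads cannot be told apart. Without copied runs, 73.3% of 2276 were unoccupied (71.4 to 75.1%). All 60 runs in annotated transposable elements were unoccupied, 54 of them with copied flanks; elements covered 5.66% of evenly spaced positions and 3.27% of members.

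The histone gene array held 23 GA runs and all 23 were members. This interval of 2L (21416953 to 21541681) carries 111 annotated replication-dependent histone genes. It was singled out after its values had been seen, as were the arm ends and the gene Parp1 in the next paragraph. Each of the 23 runs lay within 500 bp of a TSS, at a median of 62 bp, with His3 the nearest gene for 19 and His4 for 4. They were 19 to 25 bp long, 22 had a GA word in their flanks and their median flank GC was 47.8%. Over all runs, 58.4% of those with a GA word and flanks of 45 to 50% GC were unoccupied. All had copied flanks, with at most 44.2% of 50-base words single-copy. The 25 bp run at 21425117 to 21425141, nearest His3:CG31613, alone had a region in the replicates' lists, with a signal of 83.3 at rank 3727 in replicate 4 and of 73.3 at rank 2069 in replicate 2. Its flanks were 3.29% single-copy.

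The left ends of 3L and 2L carried arrays of 12 bp runs. At the end of 3L 38 copied runs lay between 260 and 38855, and at the end of 2L 11 lay between 326 and 4917; the nearest genes with a TSS were mthl8 and l(2)gl. In both arrays the runs were all 12 bp, a median of 458 bp apart, in flanks of 39.6% GC, and no replicate list had a region at any of them. These 38 runs made the first Mb of 3L the stretch with the most members, 49 of 53 runs, of which 11 had single-copy flanks. A further 8 copied runs lay in Parp1, which encodes poly(ADP-ribose) polymerase on 3R. With single-copy flanks only, the share without a summit went from 81.3% at 12 bp to 57.1% at 30 bp or more.

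Many members had a region in the longer lists. Each replicate's list held 30000 regions, background regions included, and 9.24% (replicate 4) and 8.99% (replicate 2) of evenly spaced positions lay within 200 bp of a summit. Of members, 321 (17.5%, 15.8 to 19.3%) had a region of replicate 4 and 624 (34.0%, 31.8 to 36.2%) a region of replicate 2. The median signal was 55.6 at those members in replicate 4, against 236 at occupied runs, and 26.2 in replicate 2, against 102. The optimal set took the pooled regions of highest signal, so lower signal at members is part of the choice. The pooled list had a region at 424 members (23.1%), against 9.14% of positions. Both replicates marked 175 members, replicate 4 alone 146, replicate 2 alone 449 and the pooled list alone 31, while 1035 (56.4%) were in no list, 166 of them with copied flanks. Few members lay at the strongest regions of the lists, which the choice of members also favours. There were 20 at the 3071 strongest of replicate 4 and 97 at as many of replicate 2.

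The members that each library marked differed in base composition. Those of replicate 4 alone had a median flank GC of 48.0% and those of replicate 2 alone 40.6%. In flanks under 35% GC replicate 4 marked 1 of 156 members (0.641%) and replicate 2 53 (34.0%, 26.6 to 42.0%). In flanks of 50% or more they marked 74 of 145 (51.0%, 42.6 to 59.4%) and 38 (26.2%, 19.3 to 34.2%). The evenly spaced positions moved the same way in replicate 4, from 0.0708% to 31.8%, while in replicate 2 they lay between 5.95% and 11.5%. At runs of 12 bp replicate 2 marked 24.9% of members (20.6 to 29.7%) and replicate 4 13.3% (9.97 to 17.2%). Of the 34 members of 30 bp or more they marked 44.1% (27.2 to 62.1%) and 17.6% (6.76 to 34.5%). The share of replicate 4 was 23.5% at 20 to 29 bp. Members with copied flanks are included, of which replicate 2 marked 2 and replicate 4 marked 1. The labels cite a further protocol document for replicate 2 only; its part in the difference was not tested.

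**Figure D4:**
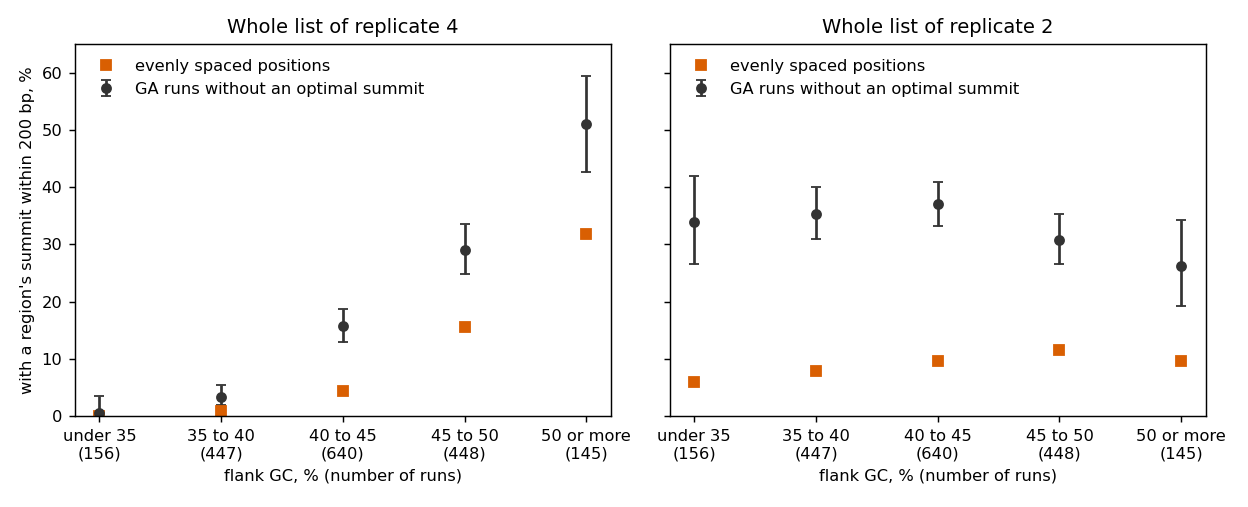
Share of GA runs without an optimal summit that lay within 200 bp of a region of each replicate's whole list, by flank GC, with exact binomial 95% intervals (dark points), and the same share of evenly spaced positions (orange squares). For replicate 4 the runs go from 0.641% to 51.0%, and for replicate 2 they stay between 26.2% and 37.0%, above the positions in every class.

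The members of highest pooled signal came close to the optimal set, whose lowest signal was 123. Highest were a pair of runs of 16 and 13 bp near lncRNA:CR44315, which shared 1 pooled region with a signal of 122 (rank 3101) and had 23.3 in replicate 2 and no region in replicate 4. A 22 bp run in an intron of kirre, an adhesion gene of muscle founder cells (X, 2823041 to 2823062), had a pooled signal of 122, with 87.6 in replicate 4 and 33.9 in replicate 2. A 23 bp run near slou, a homeobox gene of muscle identity (3R, 21561646 to 21561668), had 121 pooled and 114 in replicate 4, and no region in replicate 2. In contrast a 14 bp run in an intron of Tis11, an mRNA decay factor gene (X, 12666535 to 12666548, flank GC 34.2%), had 120 pooled and 121 in replicate 2, and none in replicate 4. A 22 bp run near CG10195 had 120 pooled, 94.2 in replicate 4 and 20.7 in replicate 2.

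Of the 1836 members, 1305 (71.1%) lay in gene bodies, against 76.8% of occupied runs. They were spread over 776 genes, and 338 of these genes (43.6%) held an optimal summit elsewhere, against 9.89% of protein-coding genes on the arms, a comparison that gene length also enters. The 11 genes with the most members, the last tied for the tenth place, were 78.1 to 394 kb long. First was mamo, a zinc-finger gene of 144 kb on X, where 17 of 19 runs were unoccupied. It was followed by CG15465 (14 of 17), Rbp6, a Musashi-family RNA-binding gene (11 of 11), dnc, the cAMP phosphodiesterase gene dunce (10 of 14), Dys, the dystrophin gene (9 of 9), mbl, a splicing regulator gene (9 of 10), and para, the voltage-gated sodium channel gene (9 of 9). Neto, an auxiliary glutamate receptor gene (8 of 8), Parp1 (8 of 8), the potassium channel gene Sh (8 of 10) and kirre (8 of 12) had the next counts. In all of these except Parp1 the flanks were single-copy and the gene held at least 1 optimal summit; kirre held 10.

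In 4 neuronal gene groups most GA runs were unoccupied, as they were over all genes. These are counts with no test, to be read against 75.1% over all runs, since runs of 1 gene share their surroundings. Of 45 runs at 24 genes of the dpr, DIP, beat and side families, cell-surface proteins of synaptic wiring, 43 were unoccupied (95.6%). Voltage-gated channel genes had 44 of 48 (91.7%), led by para with 10 of 10 when runs nearest its TSS are counted, Sh with 8 of 10 and eag and Ca-alpha1T with 6 of 7 each. Neurotransmitter receptor genes had 29 of 32 (90.6%), with 6 each at nAChRalpha3 and nAChRalpha6, and neuronal RNA-binding protein genes 25 of 31 (80.6%), where all 5 of bru3 were unoccupied but 4 of 7 at fne. Segmentation and Hox genes had few runs. In the gap and pair-rule group 6 of 10 were unoccupied, with the 3 of oc all occupied. In the Hox group 7 of 8 were unoccupied, 3 of them at Ubx. All 4 runs of segment polarity genes, at wg, ptc, nkd and arr, were unoccupied. Among genes for GA-binding and insulator factors 3 of 7 were, all at lola, while the 4 of psq, which encodes Pipsqueak, were occupied. Planar polarity genes had 4 of 7, and no run was assigned to any of the 8 dosage compensation or the 119 odorant and gustatory receptor genes.

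**Figure D5:**
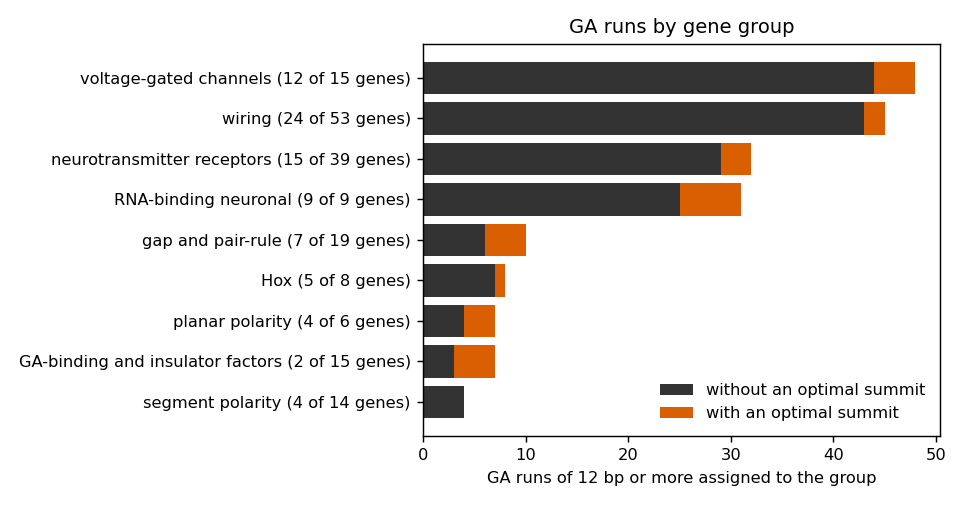
Number of GA runs of 12 bp or more assigned to each gene group, split into runs without (dark grey) and with (orange) an optimal summit within 200 bp; the labels give how many genes of the group had a run. Wiring genes had 43 of 45 and voltage-gated channels 44 of 48 runs without a summit.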

How the data were processed

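The 1836 runs, the features compared and the gene lists were chosen with earlier results of these data known. CLAMP-GFP ChIP-seq was available as lists of regions in dm6: 30000 per replicate and for the pooled reads, background regions included per the deposited file names, and an optimal set of 3077, of which 3071 on the 5 arms. Each region's signal was taken as the authors deposited it, to rank regions within a list. The aligner, the peak caller, the threshold of the optimal set and the treatment of reads mapping to several places were not given in any source used. Peak lists hold no read totals, so depth is unknown and the number of runs limits precision. The lists of the other build were not used.

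Runs were found in the Release 6 genome and annotated with BDGP 6.54 (Ensembl release 115). Distances run from the run's edges to the summit. An imperfect tract was the ungapped extension of a run in phase (match 1, mismatch -3, stop at a drop of 6). Each feature was tested by logistic regression of having no summit, with a two-sided Wald test clustered over 132 bins of 1 Mb and Benjamini-Hochberg adjustment at 0.05 over 8 tests. A planned ninth test, of coding exons, could not be fitted, because no run overlapped one. Fits with other settings were adjusted within the setting, except those that changed 1 feature's own window, which were not adjusted. The fit and the run finder were tested on simulated data. A run was assigned to the gene whose body held its centre, otherwise to the gene of the nearest TSS; the list of genes with the most members counts gene bodies only. Named are the longest members on all arms, on each arm and at promoters, those of highest pooled signal, those nearest the 200 bp limit, the genes with the most members and the longest occupied runs. The symbol psq was matched by its current spelling. Alternatives were other distances, run lengths, peak thresholds and windows, each replicate alone, 1 run per locus, a joint fit, bins with 20 or more protein-coding TSSs and, chosen after the data had been seen, runs with single-copy flanks only. The software was Python 3.11.15 with pandas 2.3.3, scipy 1.17.1 and numpy 2.4.6.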

Additional observations from a re-analysis of the deposited data

How the results depend on the processing

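Of 110 values under alternatives, 97 kept their direction and their side of the threshold or stayed within their interval, and 0 reversed. The share of runs without a summit was 77.6% with summits within 100 bp, 72.6% within 500 bp, 85.6% with the 1535 strongest optimal peaks only, 77.4% for runs of 10 bp or more, 71.5% for 16 bp or more and 73.3% with single-copy flanks only; from 1 replicate alone it was 75.6 to 79.4%. The X odds ratio did not pass with the 1535 strongest peaks (0.820, n = 2445, adjusted p = 0.153), for runs of 16 bp or more (0.842, adjusted p = 0.315), in the joint fit (0.776, adjusted p = 0.124) or with single-copy flanks (0.787, adjusted p = 0.0560). Run length did not pass in the joint fit (0.839), which also holds the length of the tract containing the run. The interaction passed for runs of 10 bp or more (1.69). The cause of these changes was not tested. The joint fit adds other features, and a higher minimum length leaves fewer runs. The X odds ratio itself also differed with minimum length. It was 0.619 (0.494 to 0.775) for runs of 10 bp or more, 0.707 for 12 bp or more and 0.842 (0.619 to 1.15) for 16 bp or more. Flank GC, GA words, tract length and promoter position passed under every alternative run, with odds ratios of 0.172 to 0.565, 0.238 to 0.368, 0.381 to 0.559 and 0.323 to 0.599. Copied flanks passed in the 10 alternatives that could be fitted (29.5 to 81.7). With the strongest peaks, and with copied flanks called under 50% single-copy, no such run was occupied and no fit was made. No alternative of the coding exon test could be run. No paired analysis was possible because there is only 1 group. Unknown read depth limits what an absent summit shows: weaker binding is not shown to be absent. The longer lists, background regions included, had regions at 17.5% (replicate 4) and 34.0% (replicate 2) of members. The shares of evenly spaced positions were 9.24% and 8.99%.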

Other observations

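Inside genes, 71.6% (68.3 to 74.8%) of 768 runs with GA on the coding strand and 75.1% (72.3 to 77.8%) of 1005 with CT on it had no summit, with overlapping intervals; the difference was not tested. A CA repeat of 12 bp or more within 100 bp accompanied 61 members (3.32%) and 24 occupied runs (3.94%). After the left end of 3L, the stretches of 1 Mb with the most members were on X, from 5 to 6 Mb (45 of 58 runs) and from 13 to 14 Mb (43 of 54), and none of these X runs had copied flanks.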
